A study of Mus musculus with 10 samples.

Results

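The genes described here encode the mitochondrial respiratory chain and ATP synthase in mouse embryonic stem cells (ESCs) that lacked glycogen synthase 1 (Gys1), AMPK, or both, or that had been moved to the primed state. A gene was taken as a member if its symbol began with Nduf, Uqcr or Atp5, was Cox followed by a digit, or was Sdha, Sdhb, Sdhc, Sdhd, Cyc1 or Cycs. The tables held 105 such rows among 21853, and 101 of them reached 1 TPM, a unit of transcript abundance, in at least 2 libraries, as did 12060 rows in all. The 101 comprised 83 structural genes (36 of complex I, 4 of complex II, 9 of complex III, cytochrome c, 17 of complex IV and 16 of complex V) and 18 assembly or associated factors. The 4 that did not reach the minimum were Cox6a2, Cox8b, Cox8c and a second row of Atp5o. Cox8b was listed at 0 in every library, while the least abundant members inside the minimum, Cox4i2 and Cox7b2, stayed at or below 2.7 and 1.3 TPM. All 101 are nuclear genes, and the genes of mitochondrial DNA were not analysed here.

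The 5 lines descend from J1, a male mouse ESC line, and each was measured in 2 libraries. The naive line (J1-WT) was wild type and grew on gelatin in serum with LIF, PD0325901 and CHIR99021, the pair of inhibitors that holds ESCs in the naive state. The knockout lines were made in J1: GKO (GYS1 KO), AKO (AMPK KO) and DKO (AMPK, GYS1 KO). Per the study's methods, Gys1 was cut in exon 9 and AKO carries a Prkaa1 knockout, so Prkaa2, the other catalytic AMPK subunit, was not targeted; which clones were sequenced was not given in the sources used here. The primed line (PJ1) was wild type and grew on Matrigel with serum replacement, bFgf and Activin, so that primed and naive cells differed in medium and substrate as well as in state. Nothing in the labels says that the 2 libraries of a line came from separate cultures, and p-values then measure only the spread between these libraries, which may be technical.

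The respiratory chain passes electrons from NADH (complex I) and succinate (complex II) through coenzyme Q to complex III, then through cytochrome c to complex IV, where oxygen is reduced. The proton gradient built by complexes I, III and IV drives ATP synthase, complex V. Nuclear genes encode most subunits and all assembly factors, and core membrane subunits come from mitochondrial DNA, so assembly needs products of both genomes. Naive ESCs are known to use both respiration and glycolysis, whereas primed cells rely more on glycolysis.

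The values are TPM, a unit scaled per transcript length and per library total, so levels can be compared between genes. Differences below are in mean log2(TPM + 1) between lines, ± the standard error of the fit (n = 2 libraries a line), and understate the change of genes near 1 TPM. A gene was called higher or lower where the limma test, fitted over all 12060 genes and 10 libraries, gave a Benjamini-Hochberg adjusted p under 0.05. In bulk libraries, fewer cells of a type and less RNA per cell cannot be told apart.

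Prkaa1 stood at 15.5 and 16.6 TPM in the naive libraries, 7.24 and 6.94 in AKO and 2.30 and 2.04 in DKO, lower in both knockouts that target AMPK. Gys1 stood at 11.5 and 10.8 TPM in naive, 9.70 and 9.98 in GKO and 12.1 and 11.7 in DKO, so the mRNA level does not mark the Gys1 knockout. The 5 general pluripotency markers, Pou5f1 among them, summed to 1725–2009 TPM in the naive and knockout libraries and 899–1010 in the primed ones. The 5 naive-state markers (Zfp42, Esrrb, Klf4, Tfcp2l1 and Tbx3) summed to 936–978 TPM in naive and 969–978 in AKO. Their sum was 1080–1102 TPM in DKO, 1074–1081 in GKO and 2.33–3.64 in primed. The primed markers reached 378–429 TPM in primed cells, 68.8 in both GKO libraries and 40.3–50.4 in naive, AKO and DKO. Fgf5, though, was 10.7 TPM in one primed library and 0.447 in the other. The 7 fibroblast markers summed to 2.38–3.46 TPM in naive, AKO and DKO, 7.97–9.22 in GKO and 9.10–15.3 in primed, where Col1a2 stood at 4.18 and 4.84 TPM against at most 0.125 elsewhere, Thy1 at 2.61 and 8.11, Col1a1 at 1.77–1.80 and Dcn and Lum at 0. Of these 7, 3 reached 1 TPM in at least 2 libraries, and Thy1 made up most of the sum in GKO. The 5 neural markers summed to 48.3–71.9 TPM in naive, AKO and DKO, 96.8–97.9 in GKO and 123–127 in primed, mostly Tubb3. Of these, Sox1 went from 0.575–0.661 TPM in naive to 27.2 and 29.6 in primed and Map2 from 0.247–0.397 to 8.05 and 6.35. The 5 primitive endoderm markers stayed at or below 5.35 TPM. Histone genes of the replication-dependent clusters, whose mRNA largely lacks a poly-A tail, summed to 40.5–47.4 TPM in naive and AKO, 56.3–87.7 in DKO, 55.4–69.2 in GKO and 73.6–86.7 in primed. The 4 tested genes of the Y chromosome (Ddx3y, Eif2s3y, Uba1y and Uty) were listed at 0 in every naive, AKO and primed library, although J1 is a male line. In DKO and GKO all 4 were present, with Eif2s3y at 37.3 and 37.4 TPM in DKO and 41.5 and 38.0 in GKO. GKO and DKO thus stood apart from the other lines in these genes as well as in Gys1 genotype, and both differences go together in every comparison of GKO or DKO with naive or AKO and cannot be told apart there. The part of all these differences in the results below was not tested.

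Together the members made up 3.46% ± 0.0932 (SD, n = 2) of the TPM over the listed genes in naive cells, 3.55% ± 0.00648 in AKO, 3.33% ± 0.0612 in DKO, 3.21% ± 0.0576 in GKO and 2.74% ± 0.0360 in primed. Their summed TPM was 20395 and 19196 in the naive libraries. It was 20528 and 20498 in AKO, 17430 and 18835 in DKO, 16386 and 17250 in GKO and 13879 and 13809 in primed. Both libraries of DKO, GKO and primed thus lay below both naive libraries, and both AKO libraries lay above them. As a ratio of line means to naive, the sum was 1.04 in AKO, 0.916 in DKO, 0.850 in GKO and 0.699 in primed. Sums are dominated by abundant genes, such as Atp5b at 1244 TPM and Cox4i1 at 947–961 TPM in naive cells, and carry no test.

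The complexes did not share one ratio. In primed cells, complex IV had the lowest ratio to naive at 0.654, followed by complex V at 0.687, complex III at 0.729 and complex I at 0.748, and complex II had the highest at 0.863. In GKO the ratio was 0.819 for complex V, 0.830 for complex I, 0.872 for complex IV, 0.899 for complex III and 0.936 for complex II. In DKO it ran from 0.892 for complex I to 0.952 for complex III. Complex II, which also serves the citric acid cycle and has no subunit from mitochondrial DNA, summed to 348 ± 6.14 TPM in naive, 346 ± 6.84 in AKO, 327 ± 11.8 in DKO, 326 ± 8.66 in GKO and 301 ± 13.9 in primed (SD, n = 2). These ratios hold a fall in the TPM over the listed genes itself. That total was 578066 and 565209 in naive, 517712 and 531306 in GKO and 512120 and 500162 in primed. As a share of listed TPM, the line means of complex II lay between 0.0594% and 0.0622%. The GKO libraries, at 0.0642% and 0.0603%, lay on either side of the naive ones, at 0.0610% and 0.0609%. Complex III was 0.401% in naive, 0.400% in DKO and 0.393% in GKO. Complex I went from 0.699% in naive to 0.632% in GKO, and complex V from 1.24% to 1.11%. Complex IV was 0.963% in naive, 0.915% in GKO and 0.711% in primed.

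**Figure D1:**
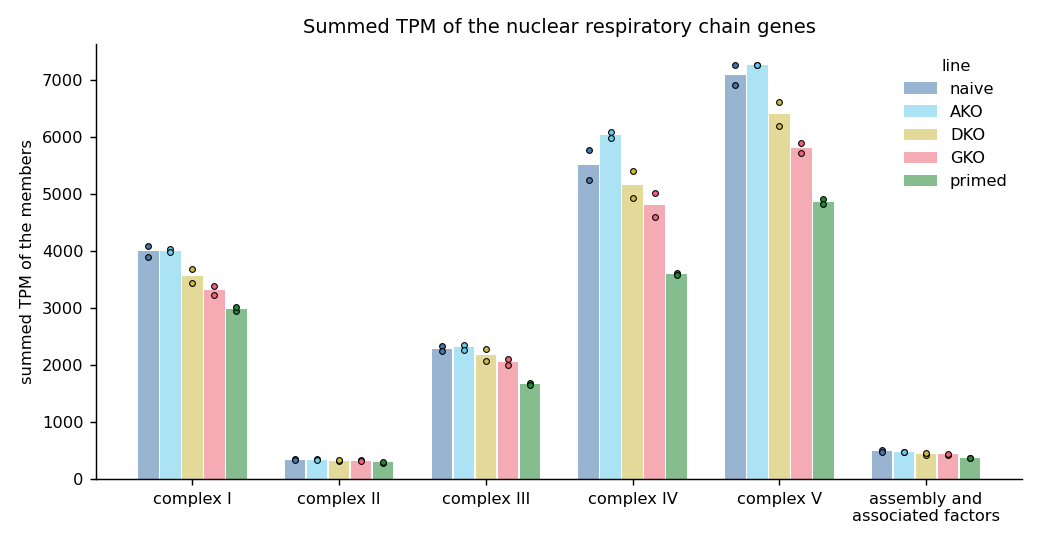
Summed TPM of the members of each complex (structural subunits) and of the assembly and associated factors in the 5 lines; bars are means and points the 2 libraries. Complex V sums to 7088 TPM in naive and 4868 in primed cells, and in each group the bars descend in the order naive, DKO, GKO, primed.

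Several subunits are encoded by paralogues, and the make-up of those families differed between lines. Atp5g1, Atp5g2 and Atp5g3 encode the same mature c subunit, which forms the rotor ring of ATP synthase, with different import sequences. In GKO, Atp5g2 was 185 and 204 TPM against 306 and 276 in naive and 289 and 294 in DKO, so both GKO libraries lay below the rest. Atp5g1 was 543 and 508 TPM in naive, 354 and 387 in DKO, 317 and 310 in GKO and 232 and 202 in primed. Atp5g3 was 759 and 710 TPM in naive, 512 and 519 in DKO, 561 and 621 in GKO and 388 and 379 in primed. Atp5g2 in primed cells stood at 301 and 336 TPM, beside the naive range, and its difference of 0.13 ± 0.0728 was not called (limma, adjusted p = 0.129). Atp5g2 therefore supplied 34.7% of the family's TPM in primed cells, 18.8% in naive, 24.7% in DKO and 17.7% in GKO. The upstream sequences of the 3 genes are shown because these copies of one subunit changed unequally. Each line gives the 150 bases before the RefSeq start, 5′ to 3′ on the gene's strand (build GRCm38.p6), with matches to the NRF1 motif (GCGCA, any base, then GCGC) or the ERR motif TCAAGGTCA, on either strand, in capitals. The windows are chr11:96075632-96075781 on the minus strand, chr15:102671048-102671197 on the minus strand and chr2:73911327-73911476 on the minus strand.
Atp5g1: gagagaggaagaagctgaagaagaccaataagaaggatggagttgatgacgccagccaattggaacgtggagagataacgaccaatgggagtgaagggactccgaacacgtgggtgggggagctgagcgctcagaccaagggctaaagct
Atp5g2: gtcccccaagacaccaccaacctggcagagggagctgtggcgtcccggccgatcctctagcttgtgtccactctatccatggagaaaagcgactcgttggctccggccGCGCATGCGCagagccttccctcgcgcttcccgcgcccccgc
Atp5g3: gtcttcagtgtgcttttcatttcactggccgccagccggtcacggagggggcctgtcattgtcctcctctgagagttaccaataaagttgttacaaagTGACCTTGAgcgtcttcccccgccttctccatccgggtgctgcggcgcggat
Within these bases Atp5g2 holds an NRF1 match and Atp5g3 an ERR match on the reverse strand. Atp5g3 also holds an NRF1 match just after its start, outside the bases shown, and Atp5g1 holds neither motif in the searched window.

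In the Cox7a family of small complex IV subunits, Cox7a1 (the form typical of muscle) was 33.8 and 33.4 TPM in naive, 44.8 and 40.4 in GKO and 10.5 and 9.40 in primed. Its share of the family went from 11.8% in naive to 16.4% in GKO and 4.03% in primed. Cox7a2, the widely expressed form, fell by 0.53 ± 0.0490 in primed cells (limma, adjusted p = 7.87e-06), while Cox7a2l, which has a role in joining complexes III and IV, rose by 0.42 ± 0.0540 (limma, adjusted p = 7.41e-05). Cox7a2l thus made up 53.5% of the family in primed cells and 34.8% in naive.

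Ndufa4, now counted as a subunit of complex IV, and its paralogue Ndufa4l2, known as a hypoxia-responsive gene, diverged most. Ndufa4l2 was 34.2 and 64.3 TPM in the primed libraries and at most 2.1 TPM in the other 8. Ndufa4 was 445 and 403 TPM in naive and 221 and 182 in primed. The difference between primed and naive was 4.78 ± 0.315 for Ndufa4l2 (limma, adjusted p = 7.5e-07), the largest of any member, and -1.07 ± 0.155 for Ndufa4 (limma, adjusted p = 0.000159). Ndufa4l2 made up 13.4% and 26.1% of the pair in the primed libraries and 0.117–0.491% in each of the others. The primed libraries differed between themselves here, but both lay far above the rest.

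Cox6b2, known as the testis form, was 36.1 and 36.6 TPM in naive and 54.9 and 68.0 in DKO (0.73 ± 0.238, limma, adjusted p = 0.0324), a call lost when any 1 library of naive, AKO or DKO was left out. The remaining minor forms were scarce. Cox4i2 had 0.404% of its family's TPM in primed cells and 0.106% in naive, and Cox7b2 was at 0.5 and 1.3 TPM in naive and 0 in primed.

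**Figure D2:**
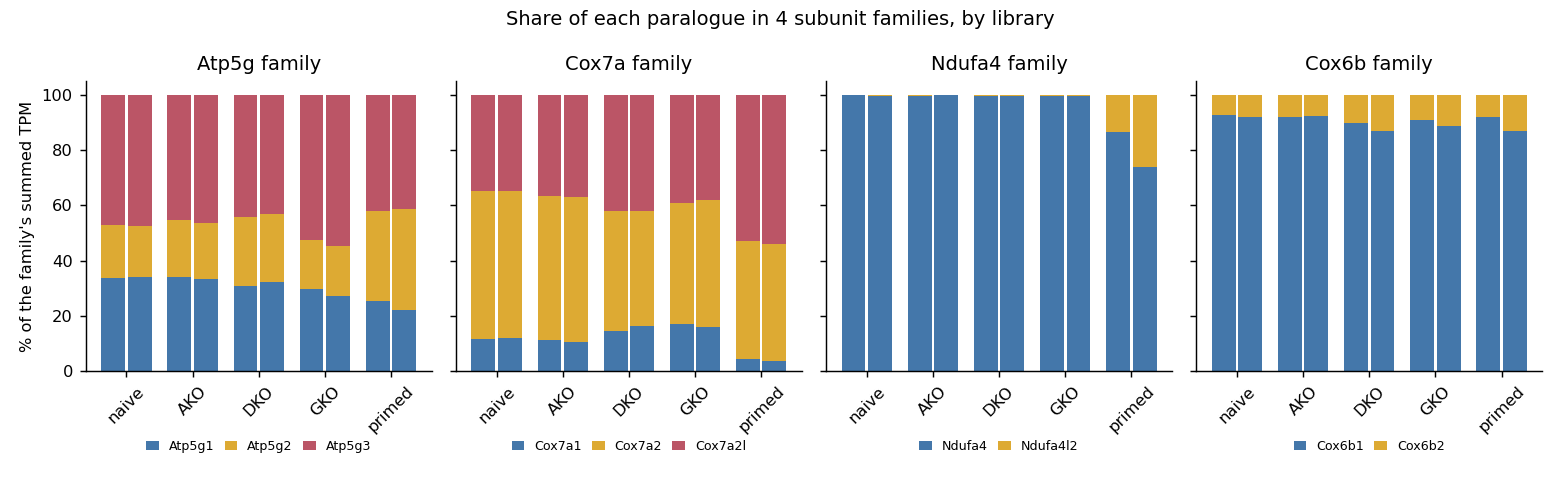
Share of each paralogue in the summed TPM of its family (% on the vertical axis), with the 2 libraries of each line as paired bars. Ndufa4l2 appears in the primed bars alone at this scale, Atp5g2 and Cox7a2l take more of their families in primed cells, and Cox7a1 takes less.

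GKO and naive, both in naive medium, differed in Gys1 genotype and in the Y genes. In GKO against naive, 51 of 101 members were lower and 5 were higher, that is 50.5% and 4.95%. Over all tested genes, 27.1% were lower and 24.7% higher. The 857 tested genes with a mean of at least 100 TPM leaned the same way as the members, with 41.9% lower and 15.5% higher. The median difference was -0.18 over the members, -0.13 over those abundant genes and -0.01 over all genes. With each library scaled to one sum over the listed genes, 32 members were lower and 12 higher, and the medians were -0.05 over the members and 0.09 over all genes. With quantile normalization the member median was -0.10.

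Complex I, which has the most members, gave the most calls, with 21 of 36 subunits lower and 1 higher (58.3% and 2.78%). As a share, more of complex V was lower (75%), with a median of -0.26 against -0.21 in complex I. Ndufv1, which binds FMN and takes electrons from NADH, was 121 TPM in both naive libraries and 68.4 and 72.4 in GKO (-0.77 ± 0.0416, limma, adjusted p = 3.25e-06). Ndufv3, an accessory subunit of the same NADH-binding module, was 168 and 154 TPM in naive and 78.6 and 92.7 in GKO. Ndufc1, a small membrane-arm subunit, was 112 and 121 TPM in naive and 57.3 and 62.9 in GKO (-0.94 ± 0.0848, limma, adjusted p = 3.98e-05). In each of these genes both GKO libraries lay below both naive libraries. Ndufa5, an accessory subunit of the peripheral arm, was the one that rose, from 69.8 and 65.7 TPM to 84.3 and 80.9. Among the 7 core subunits 3 fell (Ndufv1, Ndufs8 and Ndufs1), or 42.9%, against 18 of 29 accessory subunits, or 62.1%.

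Of the 8 complex I assembly factors 2 fell, Ndufaf3 and Ndufaf1 (25%, near the 27.1% of all tested genes). Ndufaf3, which acts early with Ndufaf4, had the largest fall of any member in GKO, from 11.5 and 10.2 TPM to 5.1 and 4.4 (-1.04 ± 0.100, limma, adjusted p = 5.52e-05). Ndufaf4 stood at 20.6 TPM in both naive libraries and 19.3 and 18.1 in GKO and was not called (limma, adjusted p = 0.202). Of the 9 complex IV assembly factors 4 fell (44.4%), namely Cox14, Cox15, Cox17 and Cox19.

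In complex II, Sdhd, a membrane anchor, was lower in GKO (-0.23 ± 0.0512, limma, adjusted p = 0.00564), a call lost with quantile normalization or the sum scaling and without naive library 1. Sdha, Sdhb and Sdhc differed from naive by -0.01, 0.14 and -0.08 and were not called. In complex III, 4 of 9 fell and 1 rose (44.4% and 11.1%), near the 41.9% and 15.5% of the abundant genes. Cyc1, the cytochrome c1 subunit, went from 231 and 219 TPM to 162 and 167 (-0.45 ± 0.0569, limma, adjusted p = 0.000232). Uqcrfs1, the Rieske iron-sulphur protein of the same complex, went the other way, from 83.7 and 90.1 TPM to 146 and 143 (0.73 ± 0.0440, limma, adjusted p = 5.45e-06), the largest rise among the members. Cytochrome c itself (Cycs) stood at 63.6 and 65.1 TPM in naive and 64.4 and 73.5 in GKO, which overlap.

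In complex IV, 7 of 17 fell and 2 rose (41.2% and 11.8%), near the 41.9% and 15.5% of the abundant genes. Cox8a, a small subunit, was 837 and 754 TPM in naive and 494 and 590 in GKO, and Cox7b, another, rose from 226 and 217 to 274 and 280. In complex V, 12 of 16 fell and 1 rose (75% and 6.25%). Atp5mpl, a small subunit of the membrane part, was 530 and 453 TPM in naive and 264 and 308 in GKO (-0.78 ± 0.0965, limma, adjusted p = 0.000213). Atp5e, the epsilon subunit, rose from 222 and 207 to 285 and 315 (0.48 ± 0.0866, limma, adjusted p = 0.00167). The core subunits Atp5a1 and Atp5b differed by -0.16 and -0.14, and of these Atp5a1 was called.

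**Figure D3:**
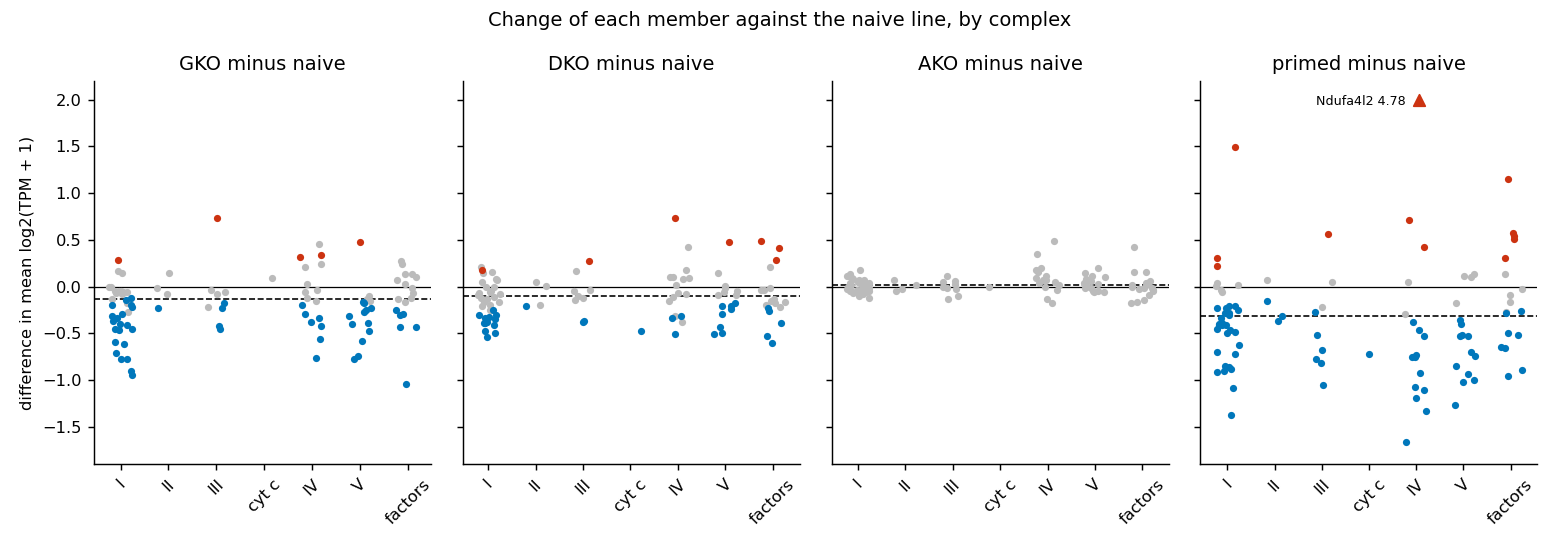
Difference from naive in mean log2(TPM + 1) for each of the 101 members, by complex, in the 4 other lines; red points were called higher, blue lower and grey neither, and the dashed line is the median of the 857 genes with a mean of at least 100 TPM. Most blue points lie below the dashed line in GKO and primed, all AKO points are grey, and the triangle marks Ndufa4l2, off the scale at 4.78.

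In AKO against naive, 0 of 101 members passed the limma test in either direction, and 6 had an unadjusted p under 0.05. Across all tested genes 0.0663% were higher and 0.158% lower, so there were few calls of any kind. The member median was 0.01. The level of Ndufv1 in AKO, 123 and 122 TPM, and that of Uqcrfs1, 80.6 and 81.1, lay beside the naive values. A missed threshold does not show that the lines were alike.

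In DKO against naive, which removes AMPK along with Gys1, 33 members were lower and 7 higher (32.7% and 6.93%), against 24.3% lower and 21.7% higher over all genes and 35.8% and 13.5% over the abundant ones. The member median was -0.13, and that of the abundant genes -0.10. With the sum scaling 29 members were lower and 12 higher (member median -0.07), and with quantile normalization 27 and 11 (-0.06). Without naive library 1 there were 3 higher, without naive library 2 or DKO library 2 there were 4.

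Complex I had 13 of 36 lower and 1 higher in DKO (36.1% and 2.78%), and complex V 8 of 16 and 1 (50% and 6.25%). Complex IV had 3 of 17 lower and 1 higher (17.6% and 5.88%), and complex III 2 of 9 and 1 (22.2% and 11.1%). The share lower of complex III was thus near the 24.3% of all genes, and that of complex IV, on 17 genes, was somewhat below it. That of complex I was near the 35.8% of the abundant genes. Cycs fell, from 63.6 and 65.1 TPM to 43.9 and 48.3 (-0.47 ± 0.0938, limma, adjusted p = 0.00325). Ndufaf4 had the largest fall, from 20.6 TPM in both naive libraries to 12.9 and 13.5 (-0.61 ± 0.0820, limma, adjusted p = 0.000429). Ndufaf3 stood at 13.9 and 11.6 TPM, the lower of these level with the higher naive library, and was not called. Atp5e rose by 0.48 ± 0.0866 (limma, adjusted p = 0.00207) to 277 and 322 TPM. Cox7a2 fell by 0.51 ± 0.0490 (limma, adjusted p = 7.46e-05), Ndufc1 by 0.54 ± 0.0848 (limma, adjusted p = 0.000934), and Cyc1 by 0.38 ± 0.0569 (limma, adjusted p = 0.000706). Atp5s, an associated factor of ATP synthase, and Ndufa9, a complex I subunit, rose by 0.49 and 0.17, and both calls were lost without naive library 1. Of the 7 core complex I subunits, 2 fell, Ndufs8 and Ndufv1 (28.6%, near the 24.3% of all genes).

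GKO and DKO were compared directly, since both lack Gys1 and differ in AMPK. The lines also differed in Y genes. Ddx3y was 22.9 and 20.9 TPM in DKO and 8.1 and 7.8 in GKO, and Uty 7.05 and 6.24 against 2.36 and 2.35. Uba1y went the other way, at 0.557 and 0.574 against 2.88 and 2.73, and Eif2s3y was alike. In GKO minus DKO, the other genes had a median of 0.15 on chromosome 6, -0.13 on 12 and -0.12 on 19. AMPK was thus not the only difference, and the part of the others was not tested. The study's methods name J1, GKO and PJ1 in their account of RNA isolation and library preparation, and AKO and DKO are not named there, so whether GKO and DKO were prepared together was not given in the sources used here. Here 23 members were lower in GKO and 12 higher (22.8% and 11.9%), against 22.4% lower and 21.2% higher over all genes, so the share lower was near the background. With the sum scaling the split was 18 lower and 17 higher. Without GKO library 1, 10 members were lower, and without DKO library 2, 12. Ndufaf3 (-1.25 ± 0.100, limma, adjusted p = 3.21e-05) and Atp5mpl (-0.92 ± 0.0965, limma, adjusted p = 0.000125) were the lowest in GKO relative to DKO. Cox7b (0.64 ± 0.0468, limma, adjusted p = 2.04e-05) and Cycs (0.57 ± 0.0938, limma, adjusted p = 0.00142) were the highest. Uqcrfs1 was 105 TPM in both DKO libraries, between the naive and GKO levels (0.46 ± 0.0440, limma, adjusted p = 7.47e-05). Sdhb, the iron-sulphur subunit of complex II, was 34.8 TPM in both DKO libraries and 44.5 and 44.1 in GKO (0.34 ± 0.0794, limma, adjusted p = 0.0086).

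An interaction of Gys1 and AMPK genotype was tested, the difference GKO minus naive less the difference DKO minus AKO. Gys1 genotype and the Y genes went together in both differences and cannot be told apart there. Prkaa1 was also unequal, at 7.24 and 6.94 TPM in AKO and 2.30 and 2.04 in DKO. The interaction was positive for 7 members and negative for 8 (6.93% and 7.92%). Over all tested genes, 12.8% were positive and 13.1% negative, so the members' shares lay below those of the background. Without DKO library 1 there were 3 positive values, and without naive library 2 or GKO library 2 there were 4. Of the 15 values, 9 kept direction and call under every alternative run for single genes.

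The most negative value was that of Ndufaf3 (-1.22 ± 0.141, limma, adjusted p = 0.000568), whose level was 11.1 and 11.0 TPM in AKO, so that GKO stood alone at 5.1 and 4.4. Atp5mpl was 562 and 566 TPM in AKO and 515 and 569 in DKO, and the interaction was -0.72 ± 0.136 (limma, adjusted p = 0.00578). Ndufv3 (-0.75 ± 0.157, limma, adjusted p = 0.00896) and Atp5g2 (-0.48 ± 0.103, limma, adjusted p = 0.0103) had the same form, with GKO below the other naive-medium lines and no overlap. Uqcr11, a small subunit of complex III, was 271 and 279 TPM in GKO and 338–379 in naive, AKO and DKO, with a value of -0.40 ± 0.0791 (limma, adjusted p = 0.00734).

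Cox7b changed in opposite directions, rising in GKO against naive by 0.32 and falling in DKO, where it was 172 and 183 TPM against 233 and 239 in AKO. Its interaction was 0.73 ± 0.0662 (limma, adjusted p = 0.000195). Ndufa5 (0.45 ± 0.0883, limma, adjusted p = 0.00662) and Uqcrfs1 (0.36 ± 0.0622, limma, adjusted p = 0.00371) were higher in GKO than in every other naive-medium library. For Cycs and Ndufaf4 the low line was DKO, and those calls were lost when single libraries were left out.

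**Figure D4:**
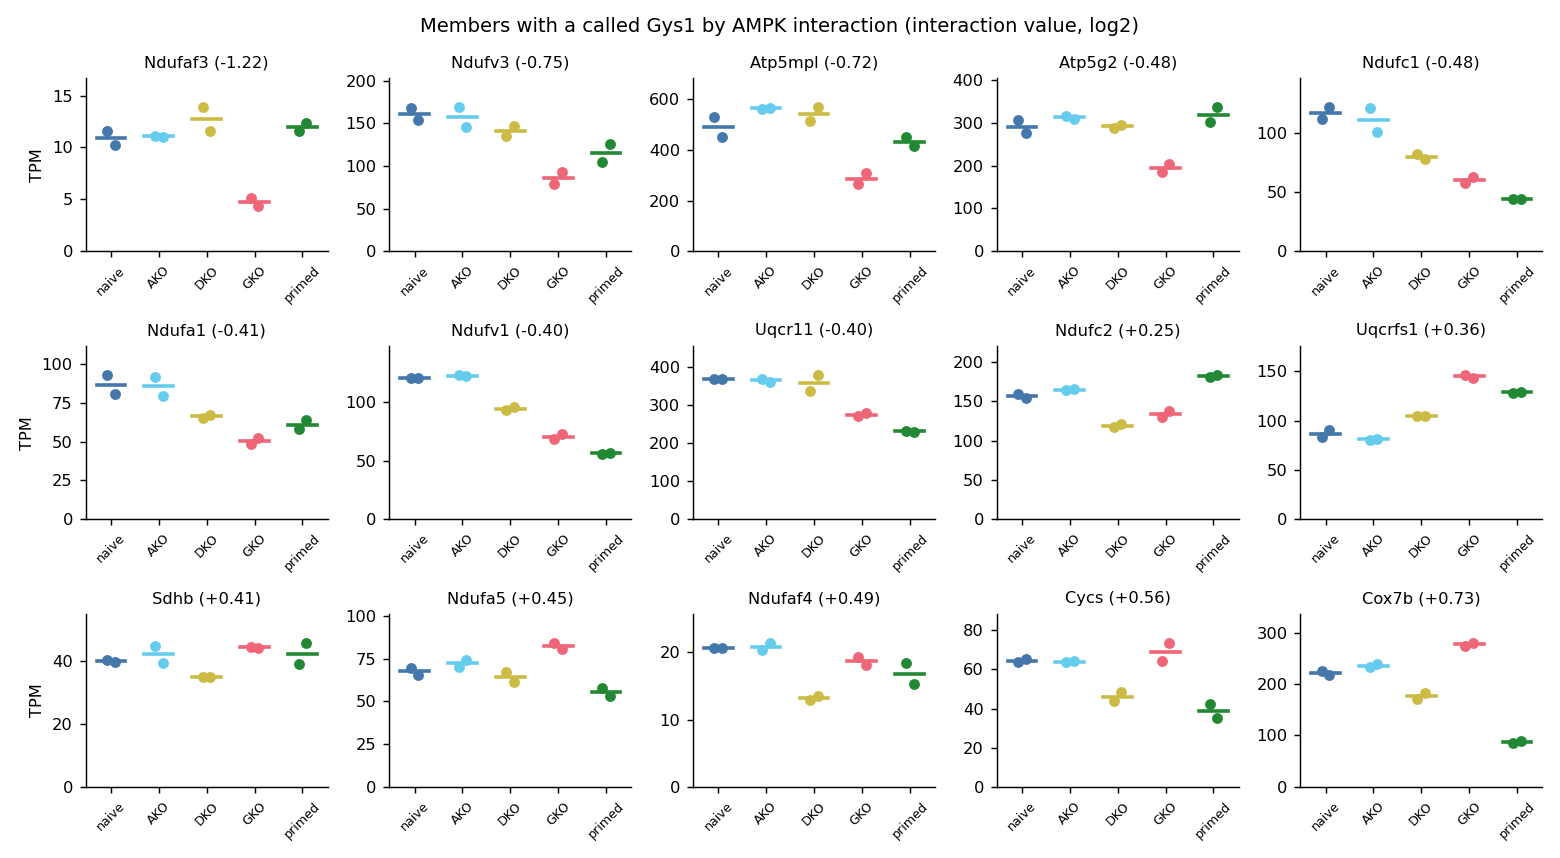
TPM of the 15 members with a called interaction in the 5 lines, points for libraries and bars for line means, ordered by the interaction (log2, in brackets). Ndufaf3, Ndufv3, Atp5mpl and Atp5g2 have GKO as the low line, Cycs and Ndufaf4 have DKO low among the naive-medium lines, and Cox7b is high in GKO and low in DKO.

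Between primed and naive cells, which differ in state and medium, 70 members were lower and 12 higher (69.3% and 11.9%). Over all genes 42.5% were lower and 37.4% higher, and over the 857 abundant genes 64.8% and 17.4%. The member median was -0.40 and that of the abundant genes -0.32. The sum scaling moved the median of all genes from -0.05 to 0.10 and gave 57 members lower and 20 higher, and quantile normalization gave 54 and 19. The member median was -0.22 under the sum scaling, -0.33 relative to the shifted median of all genes, and -0.20 under quantile normalization. All values below are without that scaling.

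Complex IV had 12 of 17 subunits lower and 3 higher in primed cells (70.6% and 17.6%). These shares were near the 64.8% and 17.4% of the abundant genes, while the median was -0.73 against -0.32 in those genes. Cox7a1 fell by 1.66 ± 0.0895 (limma, adjusted p = 1.95e-07) and Cox7b by 1.33 ± 0.0468 (limma, adjusted p = 1.29e-08), to 86.2 and 88.8 TPM. Cox5a, an accessory subunit, was 389 and 379 TPM in naive and 172 and 164 in primed. Cox4i1, the main form of subunit IV, went from 961 and 947 to 588 and 544 TPM (-0.75 ± 0.0630, limma, adjusted p = 3.78e-06). Cox6c went from 582 and 543 TPM to 255 and 264. Each of these had no overlap between primed and naive. Cox17, the copper chaperone that feeds complex IV assembly, fell by 0.96 ± 0.101 (limma, adjusted p = 1.83e-05), while Cox10, which makes heme O for the complex, rose from 15.3 and 15.8 TPM to 24.7 and 22.5.

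In complex V, 12 of 16 were lower (75%) and 0 higher (limma, 12 also had an unadjusted p under 0.05). Of the abundant genes 64.8% were lower and 17.4% higher. Atp5g1 had the largest fall (-1.27 ± 0.0733, limma, adjusted p = 3.04e-07). In complex I, 28 of 36 were lower and 3 higher (77.8% and 8.33%, against the same 64.8% and 17.4%). Among those lower were 6 of the 7 core subunits, and Ndufs3 was the core subunit not called. Ndufc1 was 44.4 and 44.1 TPM in primed, down from 112 and 121 in naive, and Ndufv1 was 56.0 and 56.6. Ndufs5, a small accessory subunit, stood apart with 51.5 and 54.8 TPM in primed and 18.8 and 17.6 in naive (1.50 ± 0.163, limma, adjusted p = 2.34e-05). Ndufc2 and Ndufb3 were the other risers of complex I.

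In complex III, 6 of 9 were lower (66.7%, near the 64.8% of the abundant genes). The largest fall was that of Uqcrc1, a matrix-side core protein, from 253 and 243 TPM to 119 in both libraries (-1.05 ± 0.0633, limma, adjusted p = 4.06e-07). Uqcrfs1 was again the exception, at 128 and 129 TPM in primed (0.56 ± 0.0440, limma, adjusted p = 2.33e-06). Cycs was 42.5 and 35.0 TPM (-0.72 ± 0.0938, limma, adjusted p = 7.68e-05). In complex II, Sdha, the flavoprotein, fell by 0.31 ± 0.0425 (limma, adjusted p = 0.000106) and Sdhc by 0.37 ± 0.0928 (limma, adjusted p = 0.00475). Sdha lost its call with quantile normalization, Sdhc with either scaling, and Sdhd, at -0.16 in the fit as reported, changed sign. Sdhb was 38.9 and 45.7 TPM and was not called. Of the 18 assembly and associated factors, 8 fell and 5 rose (44.4% and 27.8%). Over all genes these shares were 42.5% and 37.4%, so the share lower was near the background and the share higher below it. The largest rise was that of Atp5s, from 3.1 and 4.0 TPM to 8.6 and 9.5 (1.15 ± 0.151, limma, adjusted p = 8.24e-05).

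Uqcrfs1 was thus called higher in GKO, DKO and primed. Examples called lower in each were Ndufc1, Ndufv1, Ndufs8, Atp5g1, Cyc1 and Cox7a2, which is not a full list. The shares of members and of all tested genes called in GKO, DKO and primed alike were not counted. These comparisons share the naive libraries. Ndufs5 and Cox7a1 had opposite signs in GKO and primed, at -0.45 and 1.50 for Ndufs5 and 0.33 and -1.66 for Cox7a1.

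Promoters were read for the members in RefSeq (GRCm38.p6), from 250 bases before to 50 after each start, with 83 of the 101 matched by symbol. The motifs were those of NRF1 and YY1, ETS-family factors such as GABP, and ERR, all known regulators of nuclear mitochondrial genes. The NRF1 letters (GCGCA, any base, GCGC) were in the windows of 19 of 83 members (22.9%) and of 11.9% of 9661 tested genes with a promoter, read on both strands. The YY1 letters AAGATGGC were in 13 (15.7%) against 5.39%, the ETS letters CCGGAAGT in 9 (10.8%) against 9.48%, and the ERR letters TCAAGGTCA in 2 (2.41%) against 0.331%. Each motif was searched on its own, and matches to different motifs may overlap. Genes had 1.07 windows on average among members and 1.28 among all.

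Sdha and Ndufb4 held the most NRF1 matches, 3 each, and Uqcr11, one of the interaction genes, an ETS match. Sdha, whose 3 matches all lie in the 150 bases before the start, and Uqcr11 are shown, with Uqcrfs1 and Ndufaf3, which hold none of the 4 motifs here and had the largest rise and the largest fall among the members in GKO. The windows are chr13:74350241-74350390 on the minus strand, chr10:80406822-80406971 on the minus strand, chr13:30545317-30545466 on the minus strand and chr9:108567437-108567586 on the minus strand. Capitals mark NRF1 in Sdha and ETS in Uqcr11.
Sdha: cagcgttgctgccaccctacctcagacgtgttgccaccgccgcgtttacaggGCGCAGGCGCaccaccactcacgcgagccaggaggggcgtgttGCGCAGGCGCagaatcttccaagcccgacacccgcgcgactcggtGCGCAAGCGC
Uqcr11: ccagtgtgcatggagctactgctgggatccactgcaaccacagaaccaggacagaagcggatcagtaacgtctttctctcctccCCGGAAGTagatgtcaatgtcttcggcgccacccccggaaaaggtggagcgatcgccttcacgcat
Uqcrfs1: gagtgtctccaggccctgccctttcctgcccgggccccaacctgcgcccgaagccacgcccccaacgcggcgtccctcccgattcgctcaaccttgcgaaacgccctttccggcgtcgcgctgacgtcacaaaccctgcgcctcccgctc
Ndufaf3: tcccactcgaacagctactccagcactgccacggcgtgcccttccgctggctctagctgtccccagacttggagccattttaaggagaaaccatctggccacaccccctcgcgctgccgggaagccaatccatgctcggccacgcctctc
Members with and without NRF1 letters had medians of -0.18 and -0.18 in GKO, -0.08 and -0.16 in DKO and -0.31 and -0.44 in primed cells. Members with YY1 letters had medians of -0.10, -0.16 and -0.41, and those without -0.20, -0.15 and -0.41, in the same order. For the 9 members with ETS letters they were -0.23, -0.18 and -0.09, and for those without -0.18, -0.15 and -0.41. Only 2 members held ERR letters, too few to compare. A match is a description of letters and not a bound site.

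Genes of some chromosomes were shifted as a whole relative to naive. The largest shift was that of the 4 tested Y genes, none a member, with medians of 2.55 in GKO and 3.72 in DKO and 0 in AKO and primed, where all were listed at 0. On chromosome 14, which holds no member, the median over 400 tested genes was 0.47 in GKO, 0.36 in DKO and 0.54 in primed. On chromosome 19 it was -0.40, -0.27 and -0.45, and on chromosome 15 -0.16, -0.16 and -0.21. In primed it was also -0.39 on chromosome 6, -0.28 on X, -0.21 on chromosome 5, 0.30 on chromosome 11 and 0.20 on chromosome 12. It was -0.14 on chromosome 4 and -0.15 on each of 16 and 17. The 6 members on chromosome 5 were all called lower in primed, with a median of -0.80. All 5 members on chromosome 6, Ndufa4 and Cycs among them, were called lower in primed. Of the 7 on chromosome 11, where Cox10 lies, 2 were called higher and 2 lower. In AKO the median was 0.155 on chromosome 12. The 5 members on chromosome 19 (Ndufb8, Ndufs8, Ndufv1, Cox8a and Cox15) were all called lower in GKO, with a median of -0.59 against -0.40 for the chromosome's other genes. The 6 on chromosome 15 (Cyc1, Cox6c, Ndufb9, Ndufa6, Cox14 and Atp5g2) were also all called lower, with a median of -0.43 against -0.15. Ndufv1 lay -0.38 from its chromosome's median in GKO and Cox8a -0.16, and the other genes of that chromosome were lower as well. On chromosome 6, which carries Ndufa5 and Cycs, the median of other genes was 0.14 in GKO, and Ndufa5 lay 0.14 above it. On X, which carries Cox7b, Ndufa1 and Ndufb11, it was -0.06 in GKO and -0.26 in DKO, where Cox7b lay -0.06 from it. For the interaction the medians of other genes were 0.12 on chromosome 6 and 0.13 on X, and Cox7b stood 0.60 and Cycs 0.44 above those.

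In GKO, 84 members lay on chromosomes whose other genes had a median within 0.1 of 0, and 39 of these were lower and 4 higher (46.4% and 4.76%), with a median of -0.15. Over all tested genes of those chromosomes, 26.3% were lower and 23.1% higher. In DKO 22 of 84 such members were lower and 6 higher (26.2% and 7.14%), against 22.0% and 20.9% of all genes there, so the share lower was near the background. In primed 34 of 49 were lower and 5 higher (69.4% and 10.2%), against 41.3% and 36.7%. Less its own chromosome's median, the member median was -0.15 in GKO, -0.11 in DKO and -0.32 in primed, and 75, 74 and 77 of 100 placed members lay below their chromosome. Ndufc1, Ndufaf3, Uqcrfs1 and Atp5e lie on chromosomes with medians within 0.1 of 0 in GKO. Atp5mpl was not placed.

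**Figure D5:**
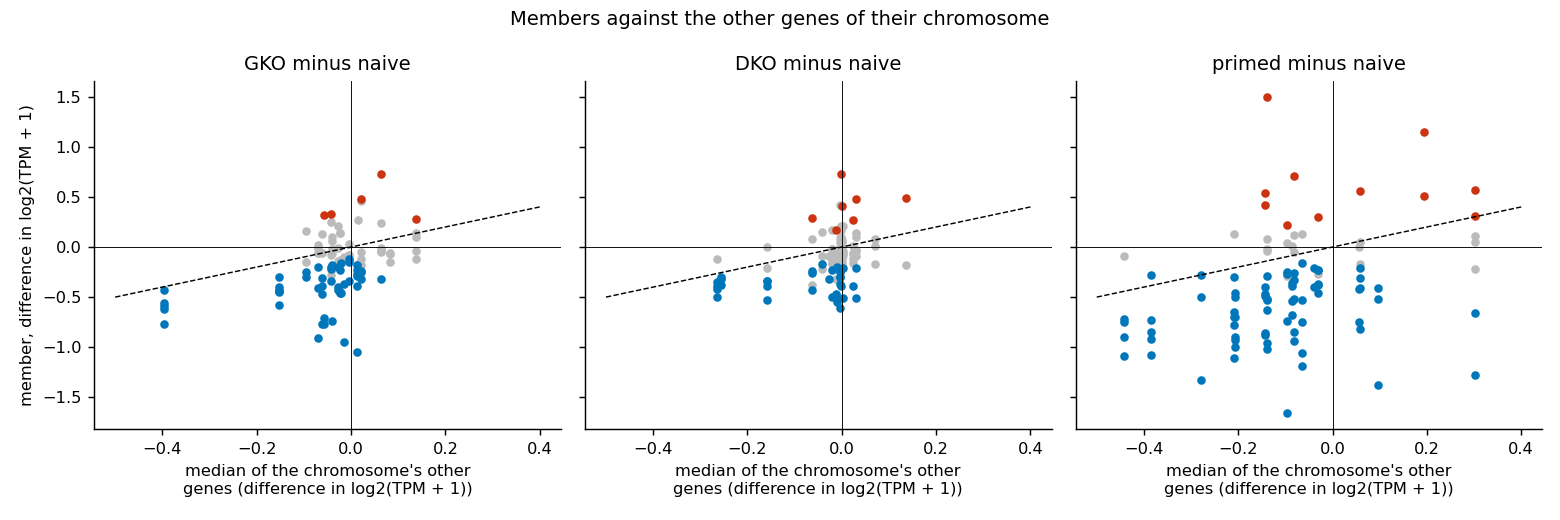
Each placed member's difference from naive (vertical axis, log2(TPM + 1)) against the median of the other genes on its chromosome (horizontal axis, same scale); colours mark calls as higher (red), lower (blue) or neither (grey), the dashed line is equality, and Ndufa4l2 is off the scale. Points at the left in GKO are the 5 members on chromosome 19, and most members lie below the line in all 3 panels.

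Genes that serve the chain without being members were counted from lists. Of 31 tested genes for mitochondrial DNA and RNA, 12 were lower and 7 higher in GKO (38.7% and 22.6%, against 27.1% and 24.7% over all genes), 7 and 5 in DKO (22.6% and 16.1%, against 24.3% and 21.7%) and 21 and 3 in primed (67.7% and 9.68%, against 42.5% and 37.4%). The DKO share lower was thus near the background. Twnk, the mitochondrial DNA helicase, had the largest fall in GKO, from 30.6 and 30.5 TPM to 16.2 and 16.1. Ssbp1, which coats single-stranded mitochondrial DNA, was 87.3 and 90.5 TPM in naive, 57.4 and 58.7 in DKO, 111 and 97.6 in GKO and 45.4 and 44.2 in primed, and its interaction was 0.85 ± 0.0839 (limma, adjusted p = 0.000287). Of 40 further assembly factors, 13 were lower and 4 higher in GKO (32.5% and 10%), and 13 and 9 in both DKO and primed (32.5% and 22.5%), so that in primed both shares lay below those of all genes. Uqcc3, which acts in complex III assembly, fell by 0.95 in GKO, Acad9, a complex I assembly factor, rose by 1.09 in DKO, and Tmem70, needed for ATP synthase assembly, rose by 1.22 in primed.

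Of 13 genes for coenzyme Q synthesis, 3 fell and 4 rose in GKO (23.1% and 30.8%, near the background), 2 and 4 in DKO (15.4% and 30.8%), and 3 and 4 in primed (23.1% and 30.8%). A further list of 13 held other electron donors, such as Etfdh, and carriers and pores of the mitochondrial membranes, such as Slc25a3 and Vdac1. Of these 13, 5 fell and 3 rose in GKO (38.5% and 23.1%, against 27.1% and 24.7% over all genes). Among these the ADP/ATP carriers, which exchange the product of complex V across the inner membrane, went in opposite directions. Slc25a4 was 111 and 110 TPM in naive, 132 and 139 in DKO, 340 and 345 in GKO and 181 and 179 in primed (GKO minus naive 1.62 ± 0.0467, limma, adjusted p = 1.25e-07). Slc25a5 was 928 and 905 TPM in naive, 621 and 653 in GKO and 583 and 629 in DKO. In AKO, limma called 0 genes of these lists, and an unadjusted p under 0.05 was found for 1 of 31, 6 of 40, 2 of 13 and 0 of 13.

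Near-identical pseudogene copies and overlapping genes limit single values. GENCODE M39 (GRCm39) names pseudogenes for 12 of the 103 placed rows, including Ndufs5, Cycs and Cox7c, and how the reads of such copies were split was not tested. A coding gene overlaps 42 rows on the opposite strand, among them Ndufaf3 (Impdh2), Ndufa4l2 (Shmt2) and Sdha (Ccdc127), and 6 on the same strand. The labels list a strand-marking kit, and the strand setting used in counting was not given in the sources used here.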

How the data were processed

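RNA of the 5 lines was measured in 10 libraries by poly-A RNA-seq. The authors trimmed reads with Trim Galore 0.6.6, aligned them with STAR (2.7.9a per the labels' notes; the study's methods name this release and another) and estimated expression with RSEM 1.3.3, and they deposited 1 table of TPM values per library, for protein-coding genes. The labels list GRCm38 and GRCh38, and the methods GRCm39. The labels name a TruSeq stranded kit for all libraries; the methods name an MGI kit and sequencer for J1, GKO and PJ1 and do not name AKO and DKO there, and which libraries used which cannot be told apart. TPM keeps no depth, so depth per library is unknown and no counting interval was given; the number of libraries limits the precision.

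Genes under 1 TPM in all but 1 or 0 libraries were dropped. A mean per line was fitted to log2(TPM + 1) with limma 3.58.1 in R 4.3.3 over 10 libraries (intensity trend, empirical Bayes), and p-values were adjusted over 12060 genes per comparison. The fit was tested on simulated data. Named genes were complex II, Cyc1, Cycs, the paralogue families, the targets, and for each comparison and complex the largest called rise and fall with no overlap and a mean of at least 5 TPM in the higher line; Ndufv1, Ndufs8, Ndufs1, Cox5a, Cox6c, Cox10, Atp5a1, Atp5b, Ndufb3, Ndufs3, the Y genes and single assembly factors were named after their values were seen. Members and lists were chosen with earlier results of these data known. Chromosomes come from GENCODE M39, promoters from RefSeq, read with Python 3 and pandas. The alternatives were scaling, pseudocount, filters, the trend, a replicate block, the libraries fitted, and leaving out each library.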

Additional observations from a re-analysis of the deposited data

Results flagged for a closer look

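The difference GKO minus naive was unlike the difference DKO minus AKO for 15 members, by the limma test of the interaction itself, (GKO minus naive) minus (DKO minus AKO), on the log2(TPM + 1) scale. Gys1 genotype and the Y genes went together in both differences and cannot be told apart there. These were 6.93% of members positive and 7.92% negative, below the 12.8% and 13.1% of all tested genes, so the count is no result about the members. The values were -1.22 for Ndufaf3, -0.75 for Ndufv3, -0.72 for Atp5mpl, -0.48 for Atp5g2, -0.48 for Ndufc1, -0.41 for Ndufa1, -0.40 for Ndufv1 and -0.40 for Uqcr11. They were 0.73 for Cox7b, 0.56 for Cycs, 0.49 for Ndufaf4, 0.45 for Ndufa5, 0.41 for Sdhb, 0.36 for Uqcrfs1 and 0.25 for Ndufc2. The calls of Cycs, Ndufa1, Ndufaf4, Ndufc1, Ndufc2 and Sdhb were lost under at least 1 alternative. With 2 libraries a line, no library could be tested for standing apart from its group.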

How the results depend on the processing

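With each library scaled to one sum over the listed genes, the members called were 12 higher and 32 lower in GKO, 12 higher in DKO and 20 higher in primed; quantile normalization gave 11 higher in DKO and 19 higher in primed, and Sdhd in primed became 0.0969 and 0.0176 under quantile normalization and the sum scaling. Fitting only the lines compared gave 8 members higher in GKO and 11 higher in DKO. Asking also for an absolute difference of at least 1 left 0 higher and 1 lower in GKO, 0 and 0 in DKO, 3 and 10 in primed, 0 and 1 in GKO against DKO, and 0 positive and 1 negative interaction. Leaving out each library in turn gave 4–7 higher and 35–54 lower in GKO, 3–9 and 25–39 in DKO, 12–14 and 66–71 in primed, 8–16 and 10–28 in GKO against DKO, and 3–8 positive and 6–12 negative interactions. AKO had 0 calls under all of these. With a replicate block, 46 members were lower in GKO, and no count moved by over 1.5 times; same-numbered libraries correlated between -0.128 and 0.078 across lines, so they share only a number. Of 1631 repeats of 86 single values, 1540 kept direction and call, 89 kept direction and lost the call, and the 2 of Sdhd reversed; the cause was not tested. The mt- to nuclear ratio was not run, since mt- genes were not analysed here.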
